A study of Saccharomyces cerevisiae with 8 samples.

Results

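The 10 genes LEU1, LEU2, LEU4, LEU9, ILV2, ILV3, ILV5, ILV6, BAT1 and BAT2 encode the enzymes with which baker's yeast makes leucine, isoleucine and valine. They were taken by systematic gene name from per-library tables that list 6170 gene identifiers, and all 10 were found. Their transcripts were measured by RNA sequencing in 2 engineered, xylose-fermenting Saccharomyces cerevisiae strains at 2 stages, with 2 duplicate fermentations per group and 8 libraries in all. The X stage was sampled at 12 h of fermentation on 20 g/L xylose alone. The GX stage was sampled at 14 h of co-fermentation, which began with both sugars at 20 g/L each, when glucose was used up and xylose remained. Temperature (30 °C), acidity (pH 5.5) and air supply (0.06 vvm) were the same for both. Growth was not, since the study reports a lower growth rate in the GX stage for BSGX001 and one too low to detect for XH7. Sugar history, growth and sampling hour cannot be told apart in comparisons of the stages. BSGX001 is a haploid strain made from CEN.PK113-5D. It carries the xylose isomerase gene Ru-XI, a xylulokinase gene (XK), pentose phosphate pathway genes placed at GRE3 (gre3::PPP) and a deletion of COX4. XH7 carries pho13::XI, gre3::PPP, XK and further xylose isomerase copies (3δ::XI). Both strains had been evolved on xylose, and each is a single evolved line. The sample labels derive XH7 from CEN.PK113-5D, whereas the study describes it as a diploid from a natural isolate. Ploidy, parent, COX4 and every other difference between the strains cannot be told apart in comparisons of the strains. The sources also name different media, which matters for an amino acid pathway. The labels give yeast nitrogen base with ammonium sulfate and no amino acids, and the study's methods give synthetic complete medium. The comparison of stages asks how this pathway was transcribed when xylose was used after glucose and when it was the only sugar.

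In yeast, valine and isoleucine are made in parallel by one set of mitochondrial enzymes, which start from pyruvate for valine and from pyruvate with a product of threonine for isoleucine. Leucine branches off at 2-ketoisovalerate, the keto acid of valine. A transaminase makes the last step of each route, and it exists as the mitochondrial Bat1 and the cytosolic Bat2. The regulator Leu3, which is switched on by the leucine intermediate α-isopropylmalate, and Gcn4, the activator of general amino acid control, are known to act on genes of the pathway. The cytosolic enzyme is also known for the first step of branched-chain amino acid breakdown, which leads to fusel alcohols.

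The promoters of the genes were searched for the letters that Leu3 and Gcn4 are known to bind, because the isozymes of each pair differ in them. The window was the 250 bases before the start codon in the RefSeq sequence of build R64. The letters CCGG, any 2 bases and CCGG again, which read the same on both strands, were present in the windows of LEU1, LEU2 and BAT1. Of 6020 windows of protein-coding genes, 7 held them (0.12%). The 3 stretches are shown with the match in capitals, 5′ to 3′ on the strand of the gene, because these genes are compared with the others below.
LEU1: aacgaaaattCCGGGACCGGcgaaatttgc
LEU2: ggtgagagcgCCGGAACCGGcttttcatat
BAT1: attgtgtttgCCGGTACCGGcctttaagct
They lie at chrVII:478850-478879 (minus strand), chrIII:91116-91145 (plus strand) and chrVIII:517375-517404 (plus strand). The first base of the match lay 217 bases before the start codon of LEU1, 198 before that of LEU2 and 147 before that of BAT1.

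The Gcn4 letters TGACTC, sought on both strands, were present in the windows of LEU4, ILV3, ILV5, ILV6 and BAT1, and in 375 of the 6020 windows (6.2%). The 2 that belong to the isozyme pairs are shown.
LEU4: tacgtgtaagTGACTCagttctttca
BAT1: tgccttcttaTGACTCaaaattctat
They lie at chrXIV:426840-426865 (minus strand) and chrVIII:517351-517376 (plus strand). The windows of LEU9, BAT2 and ILV2 held neither set of letters, so in each isozyme pair the letters were found for 1 partner. These matches are a description of the reference sequence, and neither strain's own promoters were read.

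Each library held 5279864 to 7675099 counted fragments, and 6020 to 6100 genes had at least a part of a count. The 10 genes had between 81 and 35173 counts per library. The lowest counts were those of LEU2 in XH7 GX, 118 and 81. COX4 had no count in any BSGX001 library (an upper limit of 3 counts) and 1186 to 2680 counts in XH7, as the labels require. All 10 mating genes checked, which haploid yeast of 1 or both mating types expresses and a/α diploid yeast turns off, had fewer counts in each XH7 library than in any BSGX001 library. FUS3, for instance, had 859 to 1771 in BSGX001 and 4 to 11 in XH7, but FAR1 had 453 to 730 and still 144 to 209. MFA1 and MFA2 were at 0 in XH7, and they were low in BSGX001 too, at 8 to 39 counts. GRE3 still had 145 to 492 counts in every library and PHO13 245 to 388 in XH7, although the labels place cassettes at these genes. Levels are given as CPM, counts scaled to a common library size with TMM factors, which compare libraries, and as FPKM, which also divide by gene length and so compare genes. For LEU2 the deposited gene model is 378 bp long against 1095 bp in R64, so its FPKM rests on part of the gene. The other 9 models have the R64 length. Among these genes the duplicates of BSGX001 in the X stage differed most, with LEU1, LEU9 and ILV3 1.66- to 1.79-fold higher in replicate 1 than in replicate 2. In the other groups no member differed by more than 1.5-fold between duplicates.

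**Figure D1:**
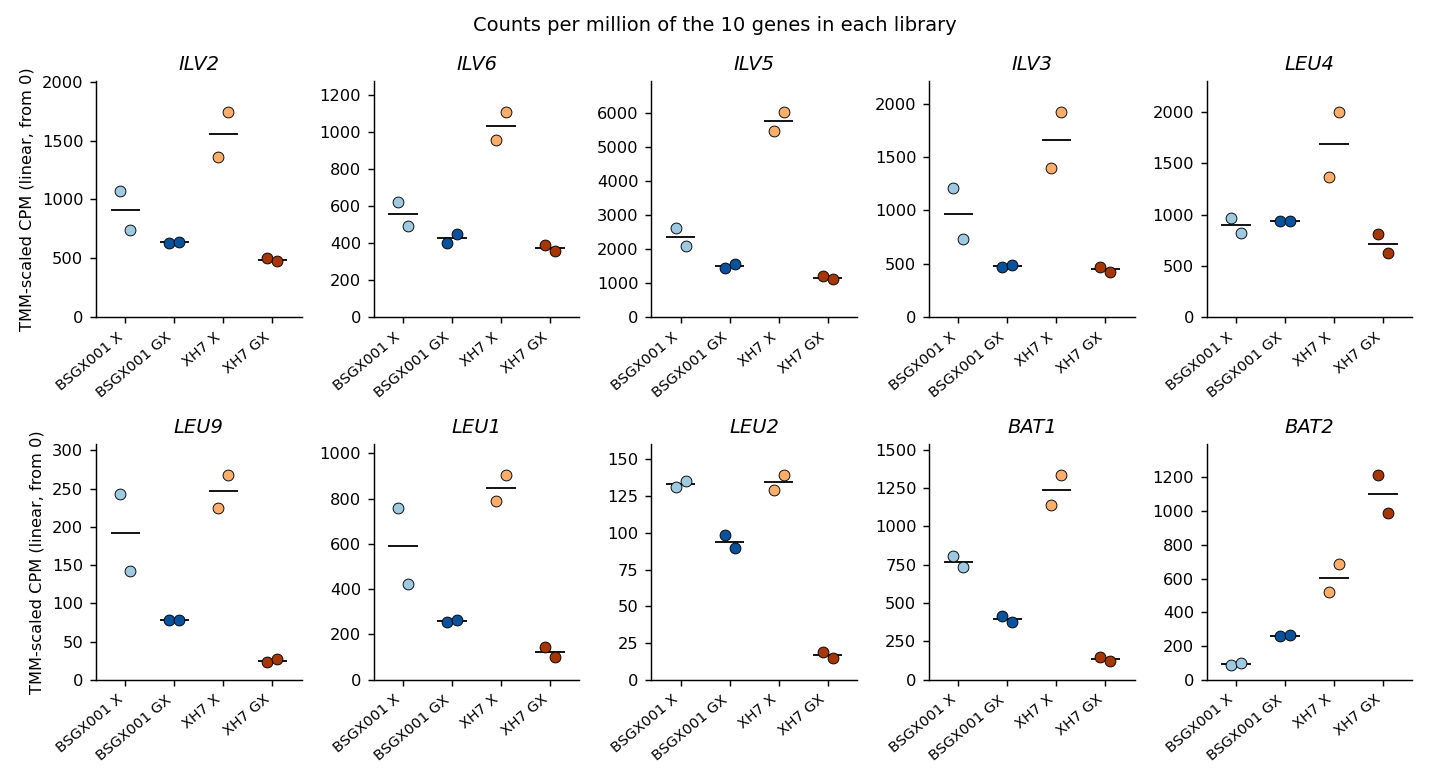
TMM-scaled CPM (vertical axes, linear from 0) of the 10 genes in each of the 8 libraries, by strain and stage, with a black line at the mean of each pair of duplicates. In XH7, 9 genes sit lower in the GX libraries, and BAT2 alone of the 10 sits higher, going from 522 and 687 to 1216 and 986 CPM.

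Per gene length, ILV5 was the most abundant transcript of the pathway in 3 groups. Its mean was 2195 FPKM in BSGX001 X, 1425 in BSGX001 GX and 4375 in XH7 X (n = 2 each). In XH7 GX it had 1054 and 964 FPKM and BAT2 had 1120 and 904, so these ranges overlapped. LEU9 was the lowest gene in 3 groups, at a mean of 47.6 FPKM in BSGX001 GX, 121 in XH7 X and 13.9 in XH7 GX. In BSGX001 X the lowest mean was that of BAT2, 93.6 FPKM, and its duplicates overlapped those of LEU9. In the X stage BAT1, ILV6, ILV3, LEU4 and ILV2 followed ILV5 in this order in BSGX001, and with ILV6 before BAT1 in XH7. Neighbours among these 5 overlapped in their duplicates in both strains, and ILV5 stood above them.

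Between the stages of BSGX001, 7 of the 10 genes fell, 1 rose and 2 did not pass at an adjusted p of 0.05 (edgeR quasi-likelihood test, Benjamini-Hochberg adjustment over 5921 genes). Of all genes tested, 24.7% were called lower and 23.0% higher. At least 2-fold, 3 members fell (LEU1, LEU9 and ILV3) and BAT2 rose, against 2.03% and 6.77% of all genes. Without BSGX001 X replicate 1 none fell 2-fold. The count was 2 (LEU1 and LEU9) with library totals, with limma, in the strain fitted alone and without either XH7 X replicate. It was 4, with BAT1 added, with upper-quartile scaling and without BSGX001 X replicate 2. Without BSGX001 GX replicate 1 it was 3, with BAT1 in place of ILV3. The median log2 change of the members was −0.58, and that of all genes tested −0.018. In XH7, 9 of the 10 fell and 1 rose, against 22.0% and 26.7% of all genes. All 9 fell at least 2-fold (5.88% of all genes did) and none rose as much (6.57%). Without XH7 X replicate 2, 8 fell 2-fold, and BAT2 passed 2-fold there, without XH7 GX replicate 2, with library totals and with limma. The median of the members in XH7 was −2.11, and that of all genes 0.038. Scaling by library totals in place of TMM raised the share of higher genes among all calls in XH7 from 54.8% to 73.8%, and upper-quartile scaling lowered it in BSGX001 from 48.1% to 35.4%. The members' calls in XH7 were 9 lower and 1 higher under every alternative run. Duplicates of the stages did not overlap for 79.1% of all genes tested in BSGX001 and 74.6% in XH7, so separate ranges of a member were what most genes showed. In bulk RNA a change in the number of transcripts per cell cannot be told apart from a change in the other RNA it is measured against.

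**Figure D2:**
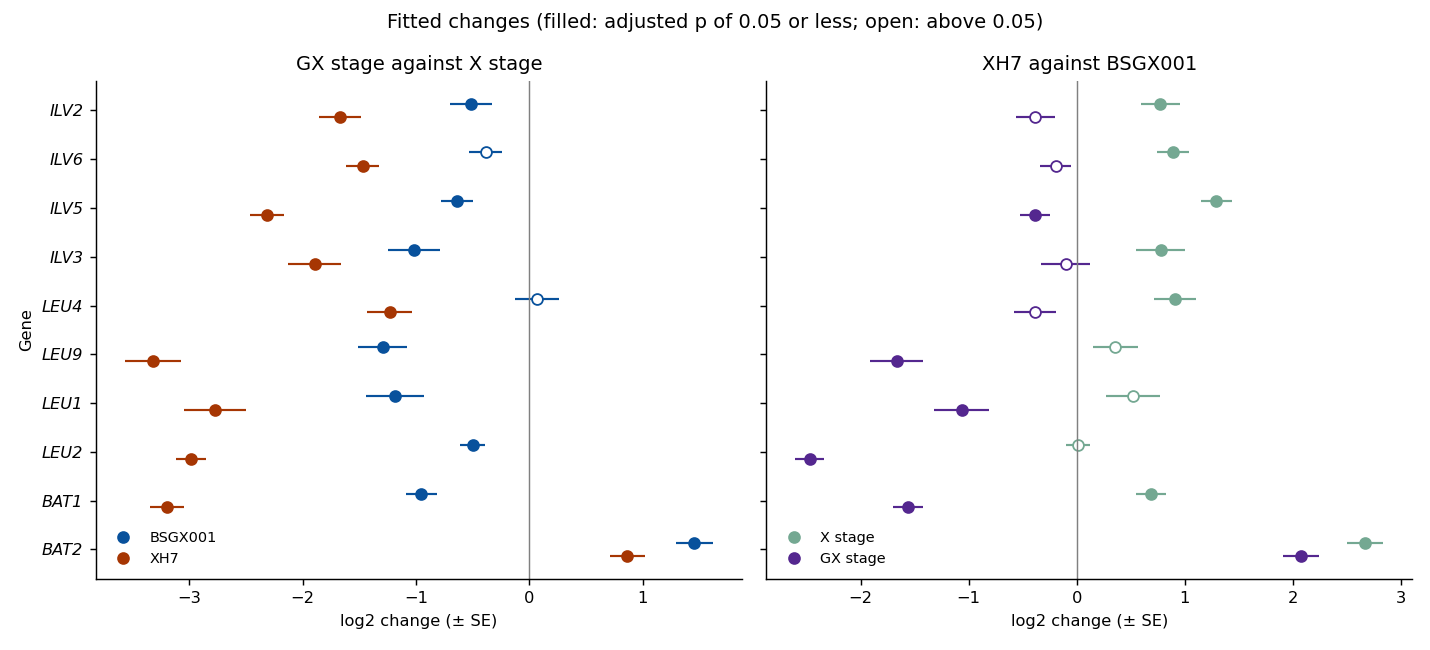
Fitted log2 changes (horizontal axes, ± SE) of the 10 genes between stages in each strain (left) and between strains at each stage (right), filled where the adjusted p is 0.05 or less. On the left, the XH7 changes of all 10 genes lie below those of BSGX001, from −0.88 for ILV3 to −2.48 for LEU2 among those other than BAT2, and BAT2 alone lies above 0 in both strains.

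ILV2 and ILV6 encode the catalytic and the regulatory subunit of acetolactate synthase, the first enzyme common to the routes. ILV6 confers feedback inhibition by valine. ILV2 had 1070 and 744 CPM in BSGX001 X and 632 and 637 in BSGX001 GX. In XH7 it had 1361 and 1744 in X and 502 and 473 in GX. The stages were apart in both strains, as for most genes. The log2 change of ILV2 was −0.52 ± 0.18 (SE) in BSGX001 (adjusted p = 0.0408) and −1.67 ± 0.19 in XH7 (adjusted p = 0.000122). The call in BSGX001 was lost under several alternatives. It was lost with limma on log2(FPKM + 1) or log2(FPKM + 0.1) (adjusted p = 0.0593 and 0.0612) and in the strain fitted alone (0.0637). Without BSGX001 X replicate 1 the change was −0.21 (adjusted p = 0.333), without BSGX001 GX replicate 1 or 2 it was −0.51 or −0.52 (0.155 and 0.145), and without XH7 X replicate 1 or 2 it was −0.50 both times (0.0507 and 0.0502). ILV6 had 620 and 493 CPM in BSGX001 X and 402 and 449 in BSGX001 GX, a change of −0.39 ± 0.14 that did not pass (adjusted p = 0.0507). It passed without BSGX001 X replicate 2 (−0.55, adjusted p = 0.0116), with upper-quartile scaling (0.0194), with no filter (0.0487) and in the DESeq2 Wald test (0.0362). In XH7 ILV6 had 957 and 1108 CPM in X and 390 and 355 in GX, and it fell by 1.47 ± 0.15 on the log2 scale (adjusted p = 7.46e-05).

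ILV5 encodes the reductoisomerase that follows, a mitochondrial protein that also binds mitochondrial DNA. It had 2609 and 2093 CPM in BSGX001 X and 1449 and 1571 in BSGX001 GX. In XH7 it had 5487 and 6042 in X and 1205 and 1107 in GX. The highest levels of ILV5 were those of XH7 on xylose alone, and the lowest those of the same strain in the GX stage. It fell by 0.64 ± 0.14 on the log2 scale in BSGX001 (adjusted p = 0.00546). In XH7 it fell by 2.32 ± 0.15, a 4.99-fold difference (adjusted p = 9.33e-06). Without BSGX001 GX replicate 1 the change in BSGX001 was −0.58 (adjusted p = 0.057). ILV3 encodes dihydroxyacid dehydratase, an iron-sulfur enzyme that makes the keto acids of valine and isoleucine. Its levels were 1211 and 729 CPM in BSGX001 X and 469 and 491 in BSGX001 GX. They were 1401 and 1924 CPM in XH7 X and 467 and 427 in XH7 GX. The 4 GX values of ILV3 thus lay between 427 and 491 CPM, while the X values spread from 729 to 1924. Its log2 change was −1.02 ± 0.23 in BSGX001 (adjusted p = 0.00597) and −1.90 ± 0.24 in XH7 (adjusted p = 0.000216). Without BSGX001 X replicate 1, which was the higher duplicate, the change in BSGX001 was −0.58 (adjusted p = 0.0343).

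LEU4 and LEU9 encode 2 isozymes of α-isopropylmalate synthase, the enzyme that commits 2-ketoisovalerate to leucine. Leu4 is the major form and is inhibited by leucine. Their coding sequences share 81.3% of 1637 aligned bases in R64, and all counts of the 10 genes in the 8 libraries (80 values) were whole numbers. LEU4 had 966 and 822 CPM in BSGX001 X and 936 and 934 in BSGX001 GX. These ranges overlapped, and the log2 change was 0.06 ± 0.19 (adjusted p = 0.804). In XH7 LEU4 had 1369 and 2003 CPM in X and 808 and 625 in GX, and it fell by 1.23 ± 0.20 (adjusted p = 0.000815), the smallest fall among the 9 that fell in that strain. LEU9 had 243 and 142 CPM in BSGX001 X and 78.6 and 78.2 in BSGX001 GX. In XH7 it went from 225 and 268 CPM in X to 22.8 and 26.7 in GX. LEU9 was low in GX in both strains. Its log2 change was −1.30 ± 0.22 in BSGX001 (adjusted p = 0.00127) and −3.32 ± 0.25 in XH7 (9.99-fold, adjusted p = 1.62e-05). These were the largest fitted falls of the 10 in each strain. LEU1 in BSGX001 (−1.19 ± 0.25) and BAT1 in XH7 (−3.20 ± 0.15) lay within 1 SE of them. Without BSGX001 X replicate 1 the change of LEU9 in BSGX001 was −0.84 and that of BAT1 −0.87.

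Within each library LEU4 exceeded LEU9 per gene length. The ratio of LEU4 to LEU9 FPKM was 3.88 and 5.63 in BSGX001 X and 11.6 and 11.7 in BSGX001 GX. In XH7 it was 5.94 and 7.28 in X and 34.7 and 22.8 in GX. The ratio was higher in each GX library than in each X library of either strain. The mean log2 ratio rose by 1.31 in BSGX001 and by 2.10 in XH7, and by 1.71 over both (exact permutation test within strains, two-sided, p = 0.0556, the smallest that 36 arrangements allow). The share of LEU9 in the summed FPKM of the pair went from 20.5% and 15.1% to 7.9% and 7.9% in BSGX001, and from 14.4% and 12.1% to 2.8% and 4.2% in XH7. The difference between strains in this shift was not tested.

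LEU1 encodes isopropylmalate isomerase, a cytosolic iron-sulfur enzyme, and LEU2 encodes the dehydrogenase that follows it. LEU1 had 759 and 424 CPM in BSGX001 X and 255 and 264 in BSGX001 GX. In XH7 it had 788 and 906 CPM in X and 146 and 102 in GX. The duplicates of BSGX001 X were far apart. The log2 change of LEU1 was −1.19 ± 0.25 in BSGX001 (adjusted p = 0.0046) and −2.77 ± 0.27 in XH7 (6.84-fold, adjusted p = 6.54e-05). Without BSGX001 X replicate 1 the change in BSGX001 was −0.69 (adjusted p = 0.0208). LEU2 had 131 and 135 CPM in BSGX001 X and 98.5 and 89.6 in BSGX001 GX. In XH7 it had 129 and 140 CPM in X and 18.8 and 14.9 in GX. The LEU2 ranges of the strains overlapped on xylose alone, and they separated in the GX stage. Between strains, the duplicates of 79.3% of all genes tested did not overlap in the X stage and those of 84.8% in the GX stage. The change was −0.50 ± 0.11 in BSGX001 (adjusted p = 0.00487) and −2.99 ± 0.13 in XH7 (7.93-fold, adjusted p = 1.64e-06). Without BSGX001 GX replicate 2 the call in BSGX001 was lost (−0.44, adjusted p = 0.0614).

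BAT1 and BAT2 moved in opposite directions in both strains. BAT1, the mitochondrial transaminase gene, had 807 and 735 CPM in BSGX001 X and 417 and 379 in BSGX001 GX. In XH7 BAT1 had 1142 and 1338 CPM in X and 148 and 122 in GX. The fall was −0.95 ± 0.14 on the log2 scale in BSGX001 (adjusted p = 0.000664) and −3.20 ± 0.15 in XH7 (9.19-fold, adjusted p = 2.34e-06). BAT2, the cytosolic transaminase gene, had 89.5 and 101 CPM in BSGX001 X and 258 and 264 in BSGX001 GX. In XH7 BAT2 had 522 and 687 CPM in X and 1216 and 986 in GX. BAT1 was lower and BAT2 higher in GX than in X in both strains. BAT2 rose by 1.45 ± 0.16 in BSGX001 (2.74-fold, adjusted p = 0.000199) and by 0.86 ± 0.16 in XH7 (1.82-fold, adjusted p = 0.00179). It was the one member that rose in either strain. The coding sequences of the pair share 72.0% of 1117 aligned bases.

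Per gene length, the order of BAT1 and BAT2 turned over in XH7 GX. BAT1 exceeded BAT2 8.61- and 6.96-fold in BSGX001 X and 1.54- and 1.37-fold in BSGX001 GX. In XH7 X it exceeded BAT2 2.09- and 1.86-fold. In XH7 GX BAT2 exceeded BAT1 8.63- and 8.44-fold. The share of BAT2 in the summed FPKM of the pair was thus 10.4% and 12.6%, 39.3% and 42.2%, 32.4% and 35.0%, and 89.6% and 89.4% in these 4 groups. The summed FPKM itself was 1313 and 1542 in XH7 X and 1249 and 1011 in XH7 GX. In BSGX001 it was 843 and 791 in X and 651 and 622 in GX. The sum was thus lower in each GX library than in each X library of its strain. FPKM are scaled to library totals and not with TMM factors, and the change of the sum was not tested. The mean log2 ratio of BAT1 to BAT2 changed by −2.41 in BSGX001, by −4.07 in XH7 and by −3.24 over both (exact permutation test within strains, two-sided, p = 0.0556, the smallest that 36 arrangements allow). Leaving out any 1 library kept the change over both strains between −3.32 and −3.17.

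**Figure D3:**
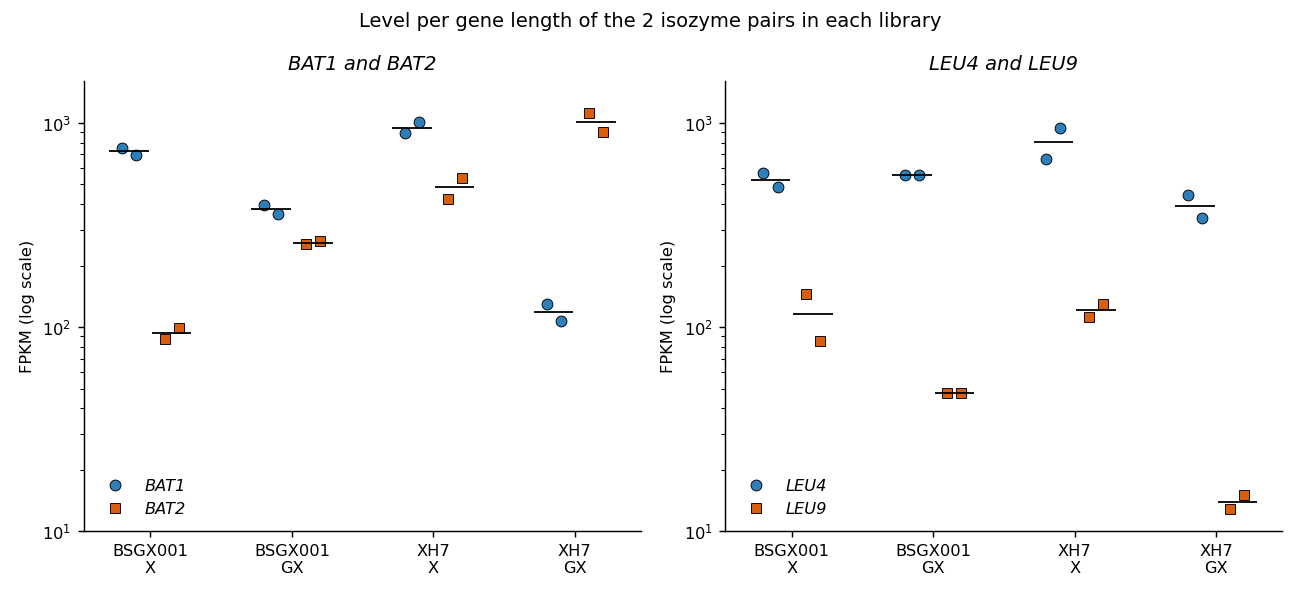
FPKM (vertical axes, log scale) of BAT1 and BAT2 (left) and of LEU4 and LEU9 (right) in each of the 8 libraries, with a black line at the mean of each pair of duplicates. BAT1 lies above BAT2 in 3 groups and below it in XH7 GX, where the means are 118 and 1012 FPKM, whereas LEU4 lies above LEU9 in all 4 groups.

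The change between stages was more negative in XH7 than in BSGX001 for 8 of the 10 genes (interaction term, adjusted p of 0.05 or less), and no member had the opposite sign. Of all genes tested, 14.2% had a called difference below 0 and 15.4% one above 0. The median difference (XH7 change minus BSGX001 change) was −1.44 on the log2 scale for the members and 0.054 for all genes. It was largest for LEU2 (−2.48 ± 0.17, adjusted p = 9.42e-05), BAT1 (−2.25 ± 0.20, adjusted p = 0.000231) and LEU9 (−2.02 ± 0.32, adjusted p = 0.00214). For ILV5, LEU1, LEU4, ILV2 and ILV6 it lay between −1.68 and −1.08. ILV3 (−0.88 ± 0.32, adjusted p = 0.0664) and BAT2 (−0.59 ± 0.22, adjusted p = 0.0754) did not pass. ILV3 passed without BSGX001 X replicate 1 (−1.34, adjusted p = 0.00459) or XH7 X replicate 1 (−1.15, adjusted p = 0.0487). In the DESeq2 Wald test ILV3 (−0.93, adjusted p = 0.00747) and BAT2 (−0.64, adjusted p = 0.0281) both passed. BAT2 also passed without XH7 X replicate 1 (−0.83, adjusted p = 0.0352) or XH7 GX replicate 1 (−0.75, adjusted p = 0.0378). With library totals the share of differences above 0 among all calls went from 52.1% to 73.2%. The negative sign was shared by other amino acid routes described below. A difference below 0 was called for 7 of 8 lysine, 5 of 7 histidine and 4 of 5 threonine genes. The medians of these lists were −1.34, −1.22 and −0.8.

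On xylose alone, XH7 had more transcript than BSGX001 for 7 of the 10 genes and less for none. Of all genes, 26.5% were called higher and 29.0% lower in XH7, and library totals in place of TMM lowered the share of higher genes among the calls from 47.7% to 24.8%. The largest differences were in BAT2 (log2 difference 2.67 ± 0.17, 6.36-fold, adjusted p = 4.49e-06) and ILV5 (1.29 ± 0.14, 2.45-fold, adjusted p = 9.22e-05). ILV2, ILV3, ILV6, LEU4 and BAT1 were higher in XH7 by 0.69 to 0.92. LEU1 (0.52 ± 0.25, adjusted p = 0.105), LEU9 (0.36 ± 0.21, adjusted p = 0.172) and LEU2 (0.01 ± 0.11, adjusted p = 0.93) did not pass. These 3 belong to the leucine branch, of which LEU4 passed (0.92 ± 0.19, adjusted p = 0.00325). Without BSGX001 X replicate 1, LEU1 (1.03, adjusted p = 0.00227) and LEU9 (0.83, adjusted p = 0.00125) passed and ILV3 was at 1.22. ILV3 (0.78 ± 0.23, adjusted p = 0.0165) lost its call without BSGX001 X replicate 2 (0.46, adjusted p = 0.0664) or XH7 X replicate 2 (0.56, adjusted p = 0.12), with library totals (0.49, adjusted p = 0.0787) and with limma (0.51, adjusted p = 0.0847 and 0.0876). LEU1 passed in the DESeq2 Wald test (0.56, adjusted p = 0.0258). With library totals BAT1 was at 0.40 and ILV2 at 0.49, both still called, and LEU2 turned to −0.28 (adjusted p = 0.049). Other amino acid routes described below were alike, with 7 of 8 lysine, 4 of 7 histidine and 4 of 5 threonine genes called higher in XH7. Their medians were 0.77, 0.71 and 0.71, against 0.78 for the members.

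In the GX stage XH7 had less transcript than BSGX001 for 5 of the 10 genes and more for BAT2, against 32.6% and 33.4% of all genes. The log2 difference was −2.47 ± 0.13 for LEU2 (5.55-fold, adjusted p = 6.44e-07), −1.67 ± 0.24 for LEU9 (adjusted p = 0.000258), −1.56 ± 0.14 for BAT1 (adjusted p = 1.56e-05) and −1.07 ± 0.26 for LEU1 (adjusted p = 0.00506). ILV5 was at −0.39 ± 0.14 (adjusted p = 0.0361). Its call was lost without BSGX001 GX replicate 1 (−0.44, adjusted p = 0.0771), BSGX001 GX replicate 2 (−0.33, adjusted p = 0.18) or XH7 GX replicate 2 (−0.33, adjusted p = 0.131). ILV2, ILV3, ILV6 and LEU4 were at −0.38, −0.10, −0.19 and −0.38 and did not pass, but ILV2 passed when BSGX001 X replicate 1 (−0.40, adjusted p = 0.0232) or replicate 2 (−0.38, adjusted p = 0.026) was left out of the fit. Both ILV2 and LEU4 passed with library totals (adjusted p = 0.0335 and 0.0412), the DESeq2 Wald test (0.0414 and 0.0495) and limma on log2(FPKM + 1) (0.0392 and 0.0443) or log2(FPKM + 0.1) (0.0402 and 0.0458). BAT2 was 4.22-fold higher in XH7 (log2 difference 2.08 ± 0.16, adjusted p = 6.54e-06), so it was higher in XH7 at both stages.

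The 10 genes together held 0.905% and 0.683% of the counts of the BSGX001 X libraries and 0.539% and 0.553% of the BSGX001 GX libraries. In XH7 they held 1.188% and 1.385% in X and 0.494% and 0.423% in GX. The share was lower in each GX library than in each X library, and the mean over strains changed by −0.538 percentage points (exact permutation test within strains, two-sided, p = 0.0556, the smallest that 36 arrangements allow).

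Genes that feed the pathway or act on it were described beside the members. Of 6 such genes tested, 3 fell and none rose in BSGX001, and 3 fell and 1 rose in XH7. Over all genes tested, 24.7% were called lower and 23.0% higher in BSGX001, and 22.0% and 26.7% in XH7. The list's medians were −0.36 and −0.70, against −0.018 and 0.038 for all genes. OAC1, which encodes a mitochondrial carrier of oxaloacetate that also transports α-isopropylmalate, had the largest fall of this list in XH7. OAC1 had 190 and 177 CPM in BSGX001 X and 98.0 and 99.6 in BSGX001 GX, then 326 and 336 in XH7 X and 47.7 and 41.5 in XH7 GX. Its log2 change was −0.89 ± 0.10 in BSGX001 (adjusted p = 0.000203) and −2.89 ± 0.11 in XH7 (adjusted p = 1.12e-06). ILV1, the threonine deaminase gene that starts the isoleucine route, fell in both strains, with −0.70 ± 0.17 in BSGX001 (adjusted p = 0.00837) and −0.96 ± 0.17 in XH7 (adjusted p = 0.00151). GDH1, which makes the glutamate used in transamination, had 1949 and 916 CPM in BSGX001 X and 737 and 700.1 in BSGX001 GX, then 663 and 522 in XH7 X and 271 and 214 in XH7 GX. Its log2 changes were −0.996 ± 0.295 (adjusted p = 0.0206) and −1.29 ± 0.30 (adjusted p = 0.00633).

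GCN4 itself did not pass the test between stages in either strain. It had 2211 and 1931 CPM in BSGX001 X and 2054 and 2050 in BSGX001 GX, then 4183 and 4485 in XH7 X and 4147 and 3966 in XH7 GX. The log2 changes were −0.01 ± 0.12 (adjusted p = 0.938) and −0.10 ± 0.12 (adjusted p = 0.544). GCN4 is known to be controlled mainly at translation, which transcript counts do not measure. Between the strains GCN4 was 1.07 ± 0.12 higher in XH7 in the X stage (adjusted p = 0.000117) and 0.98 ± 0.12 higher in the GX stage (adjusted p = 0.000103). LEU5, needed for coenzyme A in mitochondria, was at 0.12 ± 0.17 in BSGX001 (adjusted p = 0.571) and rose by 0.57 ± 0.18 in XH7 (adjusted p = 0.0239). ECM31, which draws on 2-ketoisovalerate for pantothenate, did not pass in BSGX001 (−0.03 ± 0.15, adjusted p = 0.881) or XH7 (−0.44 ± 0.17, adjusted p = 0.0537). LEU3 was not analysed here.

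Other amino acid routes were counted in the same way, where 24.7% of all genes tested were called lower in BSGX001 and 22.0% in XH7. Of the 5 genes that make threonine from aspartate, 4 fell in BSGX001 (median −0.77) and 5 in XH7 (median −1.45), led by HOM2 in BSGX001 (−0.97 ± 0.21, adjusted p = 0.00463) and HOM3 in XH7 (−2.50 ± 0.21, adjusted p = 2.83e-05). Of 8 genes of lysine synthesis, 7 fell in BSGX001 (median −0.80) and 8 in XH7 (median −2.01). LYS9, the saccharopine reductase gene, was first in both, with −1.43 ± 0.20 (adjusted p = 0.000523) and −2.92 ± 0.21 (adjusted p = 1.42e-05). Of 7 genes of histidine synthesis, 7 fell in each strain (medians −0.60 and −2.13), led by HIS1 with −1.24 ± 0.17 (adjusted p = 0.000526) and −2.57 ± 0.18 (adjusted p = 1.34e-05). No gene of these lists rose in either strain, where 23.0% (BSGX001) and 26.7% (XH7) of all genes did. The medians of the 10 members were −0.58 in BSGX001, above those of the 3 lists, and −2.11 in XH7, between those of lysine and histidine synthesis. Without BAT2, the one member that rose, they were −0.64 in BSGX001, below that of histidine synthesis alone, and −2.32 in XH7, below those of the 3 lists.

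Genes for uptake and its sensing moved in both directions. Of 11, 4 rose and 1 fell in BSGX001 (median 0.39), and 5 rose and none fell in XH7 (median 0.08). Of all genes tested, 23.0% were higher and 24.7% lower in BSGX001 and 26.7% and 22.0% in XH7, with medians of −0.018 and 0.038, so the median of this list in XH7 was near that of all genes. AGP1, a broad amino acid permease gene, had 153 and 111 CPM in BSGX001 X and 76.9 and 83.0 in BSGX001 GX, then 30.1 and 28.5 in XH7 X and 170 and 164 in XH7 GX. It fell by 0.72 ± 0.14 in BSGX001 (adjusted p = 0.00278) and rose by 2.51 ± 0.16 in XH7 (adjusted p = 8.97e-06). BAP3, a branched-chain amino acid permease gene, rose by 2.98 ± 0.50 in XH7 (adjusted p = 0.00111). Its duplicates in BSGX001 X stood at 29.5 and 103.0 CPM, and the change there did not pass (0.94 ± 0.41, adjusted p = 0.0856). Of 8 tested genes for breakdown to fusel alcohols, esters and ammonia, 2 rose and 2 fell in BSGX001 (median 0.03), and 4 rose and 1 fell in XH7 (median 0.20), so in BSGX001 both shares were near those of all genes. The largest change was that of PDC6, a minor pyruvate decarboxylase gene, with 4.01 ± 0.18 in BSGX001 (adjusted p = 2.25e-06) and 1.97 ± 0.19 in XH7 (adjusted p = 6.37e-05).

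**Figure D4:**
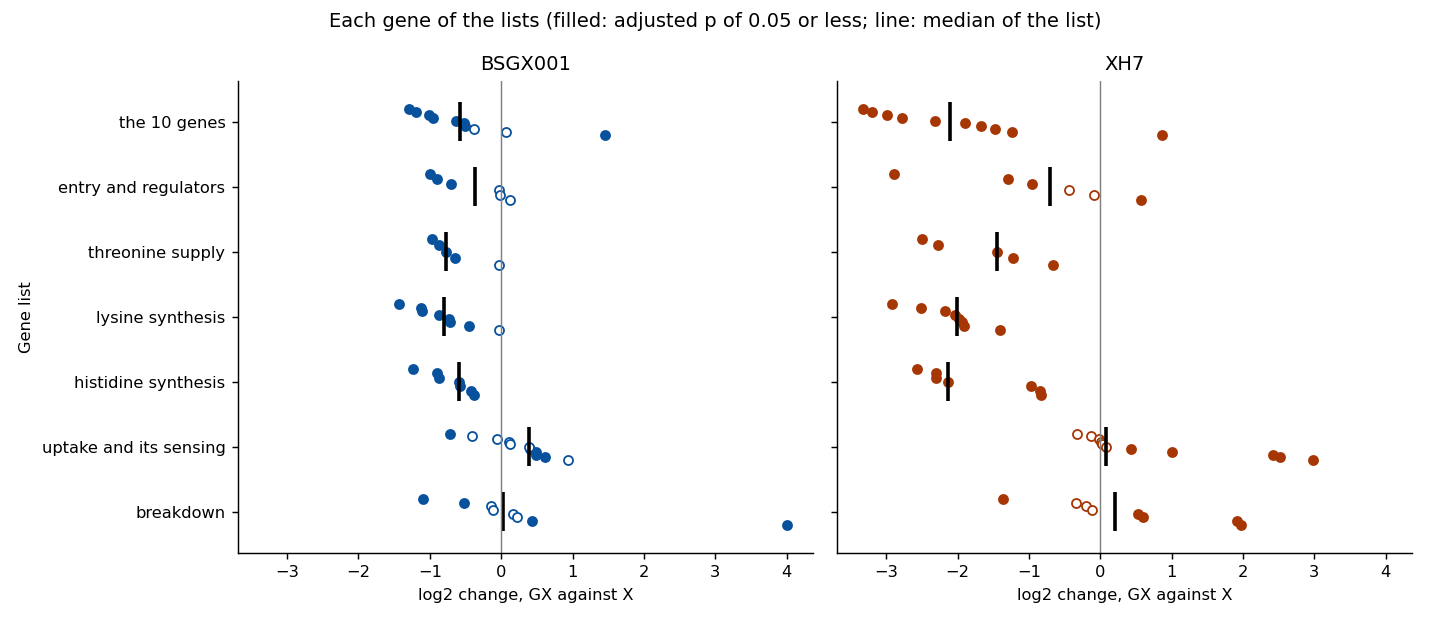
Log2 change between the GX and X stages (horizontal axes, shared by the panels) of each tested gene of 7 lists in BSGX001 (left) and XH7 (right), filled where the adjusted p is 0.05 or less, with a black line at the median of the list. The threonine, lysine and histidine lists lie below 0 throughout, and in the top row BAT2 alone lies to the right of 1 in BSGX001 and of 0.5 in XH7.

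Besides LEU1, LEU2 and BAT1, the Leu3 letters were present in the windows of GAT1, DRE2, FSF1 and BRO1, and these 4 were looked up after the members' values were seen. FSF1, predicted to encode a mitochondrial carrier of α-isopropylmalate, had 142 and 131 CPM in BSGX001 X and 91.5 and 104 in BSGX001 GX. In XH7 FSF1 had 129 and 157 CPM in X and 45.5 and 41.9 in GX. Its log2 change was −0.49 ± 0.12 in BSGX001 (adjusted p = 0.00862) and −1.71 ± 0.13 in XH7 (adjusted p = 1.87e-05). BRO1 was at 0.10 ± 0.09 in BSGX001 (adjusted p = 0.362) and fell by 0.29 ± 0.09 in XH7 (adjusted p = 0.0215). DRE2 (0.16 ± 0.10 and 0.21 ± 0.10, adjusted p = 0.208 and 0.127) and GAT1 (−0.31 ± 0.16 and 0.19 ± 0.20, adjusted p = 0.129 and 0.452) did not pass in either strain. Among the members, LEU9 had none of these letters in its window and changed by −3.32 in XH7, beside −2.77, −2.99 and −3.20 for LEU1, LEU2 and BAT1. Only exact matches within the window of the reference sequence were sought. Variant letters or matches farther from the start codon would have been missed. Whether Leu3 acts on LEU9 was not tested.

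The genes whose pattern over the 8 libraries was most like that of BAT2 were YKL202W, YJL213W, DOG1, YKR075C and THI73. Likeness was the mean absolute difference in log2 CPM after each gene was centred on its own mean, among 5479 genes with a mean log2 CPM of 3 or more. It was 0.235, 0.24, 0.25, 0.264 and 0.265 for these 5, where the median gene was at 1.197. DOG1, a sugar phosphatase gene, had 14.1 and 24.5 CPM in BSGX001 X and 27.7 and 32.0 in BSGX001 GX, then 93.4 and 106 in XH7 X and 166 and 156 in XH7 GX. THI73, a predicted carboxylic acid permease gene, had 16.9 and 19.5, 63.2 and 55.9, 60.6 and 103, and 247 and 252 CPM in the same groups. Because they were picked for likeness to BAT2 over these libraries, both shared its lowest levels in BSGX001 X and its highest in XH7 GX. The other 9 members fell in XH7, where BAT2 rose, and none was among the 5 genes.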

How the data were processed

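The authors selected poly(A) RNA with oligo(dT) beads and sequenced it on an Illumina HiSeq instrument. The gene identifiers carry the name of CEN.PK113-7D, whereas the submitters' notes list build R64. Aligner, counting program and strand setting were not given in the sources used here. Each deposited table gives expected counts per gene, which are estimated and unscaled, FPKM values scaled by the authors for gene length and library total, and a length in bp. The authors' comparison tables (mean FPKM, log2 ratio, probability) and their joined FPKM tables were not used.

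Expected counts were rounded and fitted with edgeR 4.0.16 in R 4.3.3 (quasi-likelihood F test, TMM scaling, 4 groups in 1 fit, 8 libraries, no covariate). A minimum count of 10 in filterByExpr kept 5921 of 6170 genes, including all 10 members. P values were Benjamini-Hochberg adjusted over all 5921, with calls at 0.05. The members passed the filter in every group. The script was tested on simulated data. Ratios and shares were compared by an exact permutation test of stage labels within strains, and with 2 against 2 in 1 strain no p was given. Duplicates were separate fermentations.

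The members and lists were chosen with earlier results of these data known. Values are named for all 10 members, for the genes that feed or act on the pathway, and for the largest called change per other list in each strain. Of 73 listed symbols 69 were found, and LEU3, PDC5, ADH1 and RME1 were not analysed here. Genomic letters came from RefSeq R64, aligned with blastn 2.17.0 for isozymes. None of the 10 overlaps another gene. Replicate numbers did not pair the samples. Alternatives were DESeq2 1.42.0 size factors and Wald test, upper-quartile scaling, library totals, no filter, a CPM of 10 or more in at least 2 libraries, limma 3.58.1 on log2(FPKM + 1) and on log2(FPKM + 0.1), fits of 1 strain, a replicate block and leaving out each library.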

Additional observations from a re-analysis of the deposited data

Results flagged for a closer look

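The stage change differed between the strains, by the interaction term of the edgeR fit, for 8 of the 10 members. Of all genes tested, 14.2% had a called difference below 0 and 15.4% one above 0. The stage change also differed for 10 other named genes. Of these, HOM3, HOM2, LYS9, HIS1, AGP1, BAP3 and PDC6 were named for the largest called stage change of their list in a strain. The 10 are thus not a count over a list fixed beforehand. Values are the log2 change in XH7 minus that in BSGX001. Among the members they were −2.48 for LEU2, −2.25 for BAT1, −2.02 for LEU9, −1.68 for ILV5, −1.58 for LEU1, −1.30 for LEU4, −1.16 for ILV2 and −1.08 for ILV6. Their adjusted p ran from 9.42e-05 (LEU2) to 0.0108 (LEU1). All 8 differences have one sign, with a larger fall in XH7.

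Among the other genes the difference was −2.0 for OAC1, −1.63 for HOM3, −1.49 for LYS9, −1.33 for HIS1, −1.30 for HOM2, −1.23 for FSF1 and −0.39 for BRO1. PDC6 was at −2.04, since it rose more in BSGX001. The permease genes AGP1 (3.24, adjusted p = 9.3e-05) and BAP3 (2.04, adjusted p = 0.0413) had the opposite sign. The duplicates of BAP3 in BSGX001 X differed widely, at 29.5 and 103.0 CPM. The strains also differ in ploidy, parent and COX4, and the part of each in these differences cannot be told apart.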

How the results depend on the processing

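Of 870 values of the 10 genes under alternatives, 826 kept their side of the threshold, 20 lost the call and 23 gained one. The 826 include values that changed sign where neither fit passed. LEU4 between the BSGX001 stages went from 0.06 to −0.05 with upper-quartile scaling. LEU2 between strains in the X stage went from 0.01 to −0.31 with limma. In 1 value the sign reversed and the alternative was called. The reversed one was LEU2 between strains in the X stage, which went from 0.01 to −0.28 with library totals (adjusted p = 0.049). That scaling moved the median of all genes from −0.027 to −0.31 there, and from 0.038 to 0.24 between the XH7 stages. So 1 member was lower in XH7 in the X stage with library totals, where TMM called none. Across alternatives, 5 to 8 members fell in BSGX001, 9 in XH7, 6 to 9 were higher in XH7 in the X stage, 4 to 7 lower in the GX stage, and 8 to 10 had a negative interaction. Upper-quartile scaling moved the median of all genes in BSGX001 to −0.13.

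Counts over all genes moved more. With library totals, limma with a pseudocount of 1 or limma with 0.1, genes lower in XH7 GX fell from 1304 to 817, 799 or 797. For XH7 against BSGX001 in the X stage, higher genes went from 1568 to 925, 879 or 873 and lower genes from 1719 to 2801, 2796 or 2787. Interaction calls above 0 went from 912 to 1617, 1527 or 1523, and to 606 with the DESeq2 Wald test. Those below 0 went from 838 to 556 with limma and a pseudocount of 0.1. Without 1 library, counts ran from 873 to 1477 higher and 809 to 1595 lower in BSGX001, and from 486 to 1052 above and 490 to 940 below 0 for the interaction. The causes were not tested.

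Replicate numbers did not pair the samples (correlations of deviations between groups from −0.276 to 0.268). With a replicate block, 6 members fell in BSGX001, where ILV2 lost its call (−0.51, adjusted p = 0.0631), and 9 in XH7. In the GX stage 4 members were lower in XH7, as ILV5 lost its call (−0.39, adjusted p = 0.0575). No other call of a member changed under the block, and over all genes 1280 rose and 1371 fell in BSGX001 and 1488 and 1233 in XH7. Duplicates alone, at 5279864 to 7675099 counts per library, limit what could be seen. LEU2 per length rests on a short gene model.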
